A study of Mus musculus with 6 samples.

Results

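The transient receptor potential (TRP) channels described here were 9 genes, Trpv1, Trpv2, Trpv4, Trpa1, Trpm2, Trpm3, Trpm4, Trpm8 and Trpc6, taken by symbol from the 35976 genes counted in each culture. All 9 were listed and passed the low-count filter, which left 18277 genes for testing. The RNA came from dorsal root ganglion (DRG) neurons, dissociated from the lumbar ganglia of adult C57BL/6 mice of both sexes and grown with growth factors, GDNF among them. From the second day of culture, 3 cultures were kept for 24 h with vehicle and 3 with 15 µg/mL of HC-HA/PTX3, a hyaluronan complex purified from human amniotic membrane. The question was whether a day of exposure changed the expression of genes that set how sensory neurons respond. Total counts per culture ranged from 37434266 to 54117547, and each treated library was smaller than each vehicle library. The number of animals behind a culture was not given in the sources used here, so p-values measure only the spread between these cultures.

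The cultures carried the markers of sensory neurons, with RNA of other cells beside them. The 11 neuron markers summed to 7104 ± 468 CPM in the vehicle group and 7705 ± 582 CPM in the treated group (CPM, library-scaled counts after TMM; SD, n = 3 each), led by Tubb3. Satellite glia markers summed to 1272 ± 683 CPM and fibroblast markers to 1728 ± 722 CPM with vehicle, while the 8 macrophage markers reached 58.8 ± 7.92 CPM. In bulk RNA such as this, fewer cells of a type and less RNA per cell cannot be told apart.

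TRP channels are tetrameric cation channels whose opening by heat, cold, irritants, lipids or calcium depolarises the endings of sensory neurons. TRPV1 answers to noxious heat, acid and capsaicin, TRPA1 to electrophilic irritants such as mustard oil, and TRPM8 to cooling and menthol. Receptors for inflammatory mediators tune these channels through phospholipase C, protein kinases and the membrane lipid PIP2.

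The RNA of the best known nociceptor channel, Trpv1, and of the cold receptor Trpm8 differed between vehicle and HC-HA/PTX3 by less than the spread between replicates. Trpv2 was the member with the largest difference, at 62.2 ± 11.0 CPM with vehicle and 87.2 ± 11.5 CPM after treatment (SD, n = 3 each), followed by Trpa1 within pairs. A gene was called at an adjusted p-value under 0.05 together with an absolute log2 fold change over 0.5, in a fit that compared same-numbered cultures as pairs (edgeR, quasi-likelihood test, Benjamini-Hochberg adjustment over all tested genes). None of the 9 channels met both criteria, where 8.7% of all tested genes did. At the adjusted p-value alone, 2 of the 9 were higher, Trpv2 and Trpa1, against 7.67% of tested genes in that direction. At an unadjusted p under 0.05 there were 5, against 33.2% of tested genes, and by the same criteria DESeq2, limma-voom and ComBat-seq with limma called 0 of the 9.

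Fitted log2 fold changes were positive for 8 of the 9 channels, with a median of 0.25 against -0.01 over all tested genes. In 5 of them, Trpv2, Trpa1, Trpm2, Trpm4 and Trpc6, the treated culture was higher in each of the 3 pairs, as in 25.3% of tested genes. In Trpv2 and Trpc6 the 3 treated cultures lay wholly above the 3 vehicle cultures, against 9.44% of tested genes. Without the pairing, edgeR's test called 0 of the 9 channels and 0% of tested genes, and 1 channel, Trpv2, had an unadjusted p under 0.05, against 11.4% of tested genes.

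**Figure D1:**
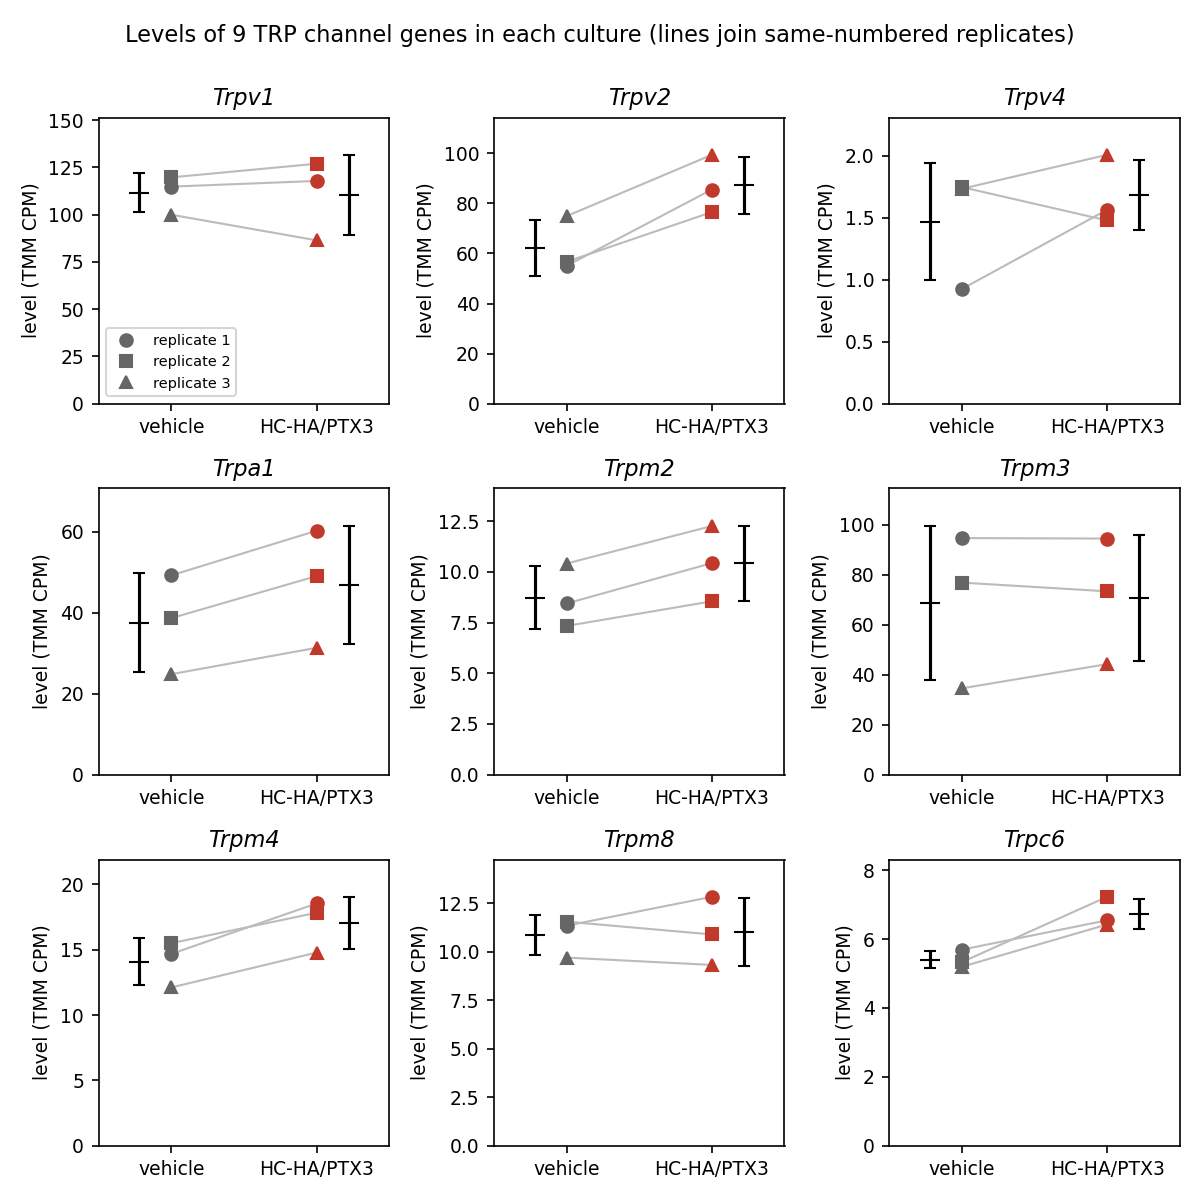
Level of each TRP channel gene in TMM-scaled CPM (vertical axis, starting at 0) in the vehicle (grey) and HC-HA/PTX3 (red) cultures, with lines joining same-numbered replicates and bars giving mean ± SD (n = 3). All 3 lines slope upward for Trpv2, Trpa1, Trpm2, Trpm4 and Trpc6, while those of Trpv1, Trpv4, Trpm3 and Trpm8 point both ways.

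Promoters of the 3 members that frame these results are shown to place the genes: Trpv1, with overlapping groups, Trpv2 on the same chromosome, with the largest difference, and the cold receptor Trpm8. The RefSeq promoter table (GRCm38.p6, 250 bases before to 50 after a start site, plus strand for all 3) held 7 of the 9 members. Each was searched on both strands for a cAMP response element (TGACGTCA), a TATA box (TATAAA), an AP-1 site (TGANTCA), an E-box (CACGTG) and a GC box (GGGCGG), and capitals mark the matches, which did not overlap.
Trpv1, chr11:73233899-73234198: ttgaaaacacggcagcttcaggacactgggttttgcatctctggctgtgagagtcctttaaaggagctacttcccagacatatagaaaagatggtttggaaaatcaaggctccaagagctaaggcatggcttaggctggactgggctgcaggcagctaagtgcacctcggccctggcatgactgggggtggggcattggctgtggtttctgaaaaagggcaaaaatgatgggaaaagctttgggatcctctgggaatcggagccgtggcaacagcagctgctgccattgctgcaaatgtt
Trpv2, chr11:62574263-62574562: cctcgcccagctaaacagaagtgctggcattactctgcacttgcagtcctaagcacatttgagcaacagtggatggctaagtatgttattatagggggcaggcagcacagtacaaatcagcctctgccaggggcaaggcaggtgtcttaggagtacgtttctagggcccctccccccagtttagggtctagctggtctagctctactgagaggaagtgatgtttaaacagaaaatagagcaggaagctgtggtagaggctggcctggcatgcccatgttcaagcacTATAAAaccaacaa
Trpm8, chr1:88306485-88306784: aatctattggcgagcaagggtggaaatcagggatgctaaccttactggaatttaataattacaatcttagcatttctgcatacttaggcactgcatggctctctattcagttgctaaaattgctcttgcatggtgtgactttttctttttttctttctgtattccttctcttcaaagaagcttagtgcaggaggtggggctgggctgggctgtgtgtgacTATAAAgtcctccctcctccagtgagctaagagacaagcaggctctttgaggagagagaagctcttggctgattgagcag
The Trpm8 window has TATAAA beginning 30 bases before the start site. In the Trpv2 window the same letters begin 36 bases after this start, which is 1 of 3 starts listed for the gene, and the other 2 windows have no match. The Trpv1, Trpm3 and Trpc6 windows hold none of the 5 motifs. The Trpv4 window has 3 GC boxes, and that of Trpm2 has 1 GC box and 1 TATA match. Among 32851 promoters of the same length, 13.6% hold the TATA letters, 35.7% a GC box, 7.81% an AP-1 site, 7.15% an E-box and 1.79% the cAMP response element. A match describes the letters only.

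Trpv1 (chromosome 11 of mm10, 73234292 to 73261242, plus strand) was measured at 115, 119.7 and 99.9 CPM in vehicle replicates 1, 2 and 3. In HC-HA/PTX3 replicates 1, 2 and 3 it was at 118, 127 and 86.4 CPM. The groups overlapped, and replicate 3 was the lowest culture of each group. The log2 fold change was -0.03 (SE 0.07, 95% interval -0.19 to 0.13, edgeR adjusted p = 0.817), an interval that lies within the fold threshold on both sides. Its sign turned positive under upper-quartile scaling, after ComBat-seq and without the replicate 3 cultures, where it was 0.08.

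Trpm3, a further heat-gated channel, which also opens to the neurosteroid pregnenolone sulfate, lies on chromosome 19 from 22139046 to 22995410. Vehicle replicates 1, 2 and 3 held 94.7, 76.9 and 34.6 CPM, and the treated replicates 94.5, 73.4 and 44.3 CPM. Both replicate 3 cultures stood far below the other 4, so the spread between replicates exceeded any difference between the groups. Within pairs the log2 differences were -0.0030, -0.07 and 0.36, and the fitted change was 0.09 (SE 0.09, edgeR adjusted p = 0.496). Without the replicate 3 cultures it was -0.02. Noncoding genes on the opposite strand share 2.57% of the Trpm3 exon bases, and reads there cannot be assigned without knowing whether the counting used strand.

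Trpv2, named as a heat sensor of high threshold from work in transfected cells and found outside the nervous system as well, lies on chromosome 11 from 62574486 to 62600515. It was at 55.1, 56.7 and 74.9 CPM in vehicle replicates 1, 2 and 3 and at 85.6, 76.6 and 99.4 CPM after HC-HA/PTX3. Every treated culture exceeded every vehicle culture, though treated replicate 2 did so by a small margin over vehicle replicate 3. The pairs differed by 0.64, 0.43 and 0.41 on the log2 scale. The fitted log2 fold change of 0.49 (SE 0.07, 95% interval 0.34 to 0.65, edgeR adjusted p = 0.00167) fell just short of the threshold of 0.5. It crossed the threshold under upper-quartile scaling (0.52) and without the cultures numbered 2 (0.52) or 3 (0.55), and was 0.42 without those numbered 1. Over 10 other settings the adjusted p ran from 1.72e-07 to 0.334, the highest being the fit without pairs, and it was under 0.05 in the other 9.

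Trpa1, the irritant receptor, lies on the minus strand of chromosome 1 from 14872648 to 14918862. Levels were 49.3, 38.7 and 24.8 CPM in vehicle replicates 1, 2 and 3 and 60.3, 49.1 and 31.4 CPM in the treated replicates. The 2 groups overlapped widely because both fell into the same order of replicates, with number 1 highest and number 3 lowest. The differences within pairs were nearly equal, at 0.29, 0.34 and 0.34 on the log2 scale. The paired fit gave 0.32 (SE 0.07, 95% interval 0.17 to 0.48, edgeR adjusted p = 0.0115), an interval entirely below the fold threshold. Without the pairing the SE was 0.31 and the adjusted p 0.763. Over 10 other settings the adjusted p ran from 0.00065 to 0.763 and passed 0.05 in 7. It was 0.0542 without the cultures numbered 1 and 0.0732 without those numbered 2.

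Trpm8, the cold and menthol receptor, lies on chromosome 1 from 88277661 to 88389293. Vehicle replicates 1, 2 and 3 had 11.3, 11.6 and 9.70 CPM, and the treated replicates 12.8, 10.9 and 9.32 CPM. The groups overlapped, and only the first pair was higher after treatment. The log2 fold change was 0.01 (SE 0.11, 95% interval -0.23 to 0.26, edgeR adjusted p = 0.953). The value turned negative with every gene of at least 1 count kept and without the cultures numbered 1. An antisense gene shares 8.2% of the Trpm8 exon bases, so part of these counts may not be Trpm8 RNA. Of 3 other markers of cold neurons, 1 was called, against 8.7% of all tested genes. Foxp2 was called lower (-0.61, edgeR adjusted p = 0.0176), while Penk, the most abundant, and Cdh8 were at 0.07 and 0.03. The Foxp2 call was lost without the cultures numbered 1 (adjusted p = 0.124; range over 10 settings 0.0014 to 0.536).

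Trpm4 and Trpm2 are gated from inside the cell, Trpm4 by calcium as a channel for sodium and potassium, and Trpm2 by ADP-ribose under oxidative stress. Trpm4 (chromosome 7, 45302632 to 45333780) was at 14.7, 15.5 and 12.1 CPM with vehicle and at 18.5, 17.8 and 14.8 CPM after HC-HA/PTX3, in replicates 1, 2 and 3. Only treated replicate 3 reached into the vehicle range. The log2 fold change was 0.28 (SE 0.10, edgeR adjusted p = 0.0698). Trpm2 (chromosome 10, 77907722 to 77970563) had 8.44, 7.33 and 10.4 CPM with vehicle and 10.4, 8.55 and 12.3 CPM after treatment. Its highest culture in each group was replicate 3, the opposite of Trpm4. The log2 fold change was 0.25 (SE 0.11, edgeR adjusted p = 0.134). Both failed the adjusted threshold in the paired fit and passed it after ComBat-seq with limma, at 0.0033 and 0.00427, a procedure that makes no allowance for the batch step in its errors. Trpc6 also passed it there, and Trpm4 passed it under upper-quartile scaling as well, at 0.0494. The highest adjusted p over the other settings was 0.558 for Trpm4 and 0.699 for Trpm2, in the fit without pairs.

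Trpc6, opened by diacylglycerol, and Trpv4, opened by swelling and warmth, were the least counted members. Trpc6 (chromosome 9, 8544142 to 8680741) was at 5.69, 5.33 and 5.20 CPM in vehicle replicates 1, 2 and 3 and at 6.55, 7.23 and 6.42 CPM in the treated ones. The groups did not overlap, and the vehicle values lay close together. Its log2 fold change was 0.32 (SE 0.13, 95% interval 0.03 to 0.60, edgeR adjusted p = 0.116). Trpv4 (chromosome 5, 114622152 to 114658421) was counted 37, 75 and 97 times with vehicle and 58, 56 and 79 times after treatment. At such counts the interval of its log2 fold change, -0.30 to 0.74 around 0.22 (edgeR adjusted p = 0.562), covers both no change and a change past the threshold. Without the cultures numbered 1 the value was -0.0015.

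**Figure D2:**
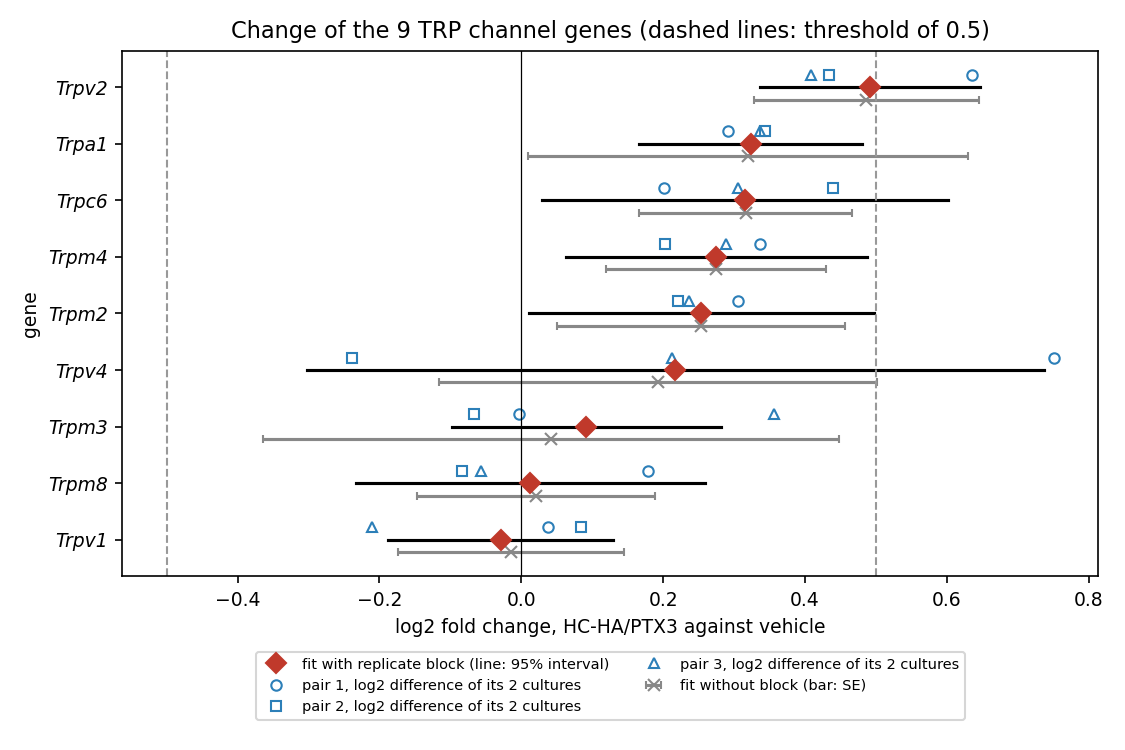
Log2 fold change of each TRP channel gene, HC-HA/PTX3 against vehicle (horizontal axis), from the paired fit (diamond, with its 95% interval), from each pair of cultures (open symbols) and from the fit without pairs (cross, with its SE), with dashed lines at the threshold of 0.5. The paired estimate of Trpv2 sits at 0.49, next to the dashed line, and for Trpa1 the SE was 0.07 in the paired fit and 0.31 without pairs.

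Set per kilobase of exon, which allows genes to be compared, Trpv1 was the highest member with vehicle at 30.3 ± 2.79 CPM per kb (SD, n = 3). Trpv2 followed at 13.9 ± 2.46 and Trpa1 at 8.82 ± 2.87 CPM per kb. These 3 kept their order in all 6 cultures, and their vehicle ranges did not overlap. Trpm3 at 2.81 ± 1.27 and Trpm8 at 2.30 ± 0.214 CPM per kb did not differ beyond their spread, since Trpm3 was higher in 4 of 6 cultures. Trpm4 at 1.30 ± 0.164 and Trpc6 at 1.07 ± 0.0507 came next, with Trpm4 higher in all 6 cultures although their vehicle ranges met, and then Trpm2 at 0.701 ± 0.125 and Trpv4 at 0.36 ± 0.116 CPM per kb. After HC-HA/PTX3 the order was the same, with Trpv1 at 29.98 and Trpv2 at 19.4 CPM per kb. With the length of the longest transcript in place of all exon bases, Trpm4 (3.27 CPM per kb) stood above Trpm8 (2.62), Trpv1 was above Trpv2 in 5 of 6 cultures, and the vehicle ranges of Trpa1 and Trpm3 overlapped, so parts of the order depend on the transcript model.

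Of the 19 other TRP family genes, 15 were tested and 0 passed both thresholds by edgeR, DESeq2 or limma-voom, with 6 at an unadjusted p under 0.05 in the paired edgeR fit, against 33.2% of all tested genes. ComBat-seq with limma called Trpm1 and Pkd2l1. Trpm7, a channel fused to a kinase, had the highest level per kb of exon among them, at 9.16 ± 1.28 CPM per kb with vehicle (SD, n = 3), within the spread of Trpa1. By the longest transcript Mcoln1 (16.86 CPM per kb) stood above Trpm7 (14.59). Trpm1 (0.90, edgeR adjusted p = 0.0827) and Pkd2l1 (0.60, adjusted p = 0.0867) had the largest estimates in the paired fit, from levels of 0.335 and 1.21 CPM with vehicle. The polycystin Pkd2 was at -0.24 and the lysosomal channel Mcoln1 at 0.22, with adjusted p-values of 0.0514 and 0.0606. Trpm6, Trpm7, Trpv3, Trpc5, Mcoln2, Pkd2l2, Mcoln3, Trpc1, Trpc7 and Trpc4 ranged from -0.35 (Trpc4) to 0.41 (Trpm6 and Trpv3), with adjusted p-values of 0.128 to 0.937. Trpv5 and Trpc2 had 0 counts in every culture, which allows levels of up to 0.0808 CPM where this limit (3 counts) was highest, and it covers counting error only. Trpv6 and Trpm5 had 0 counts in at least 1 culture of each group and were not tested. All exon bases of Trpc2 are shared with the genes Xndc1 and Xntrpc, so its 0 says nothing of that transcript.

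**Figure D3:**
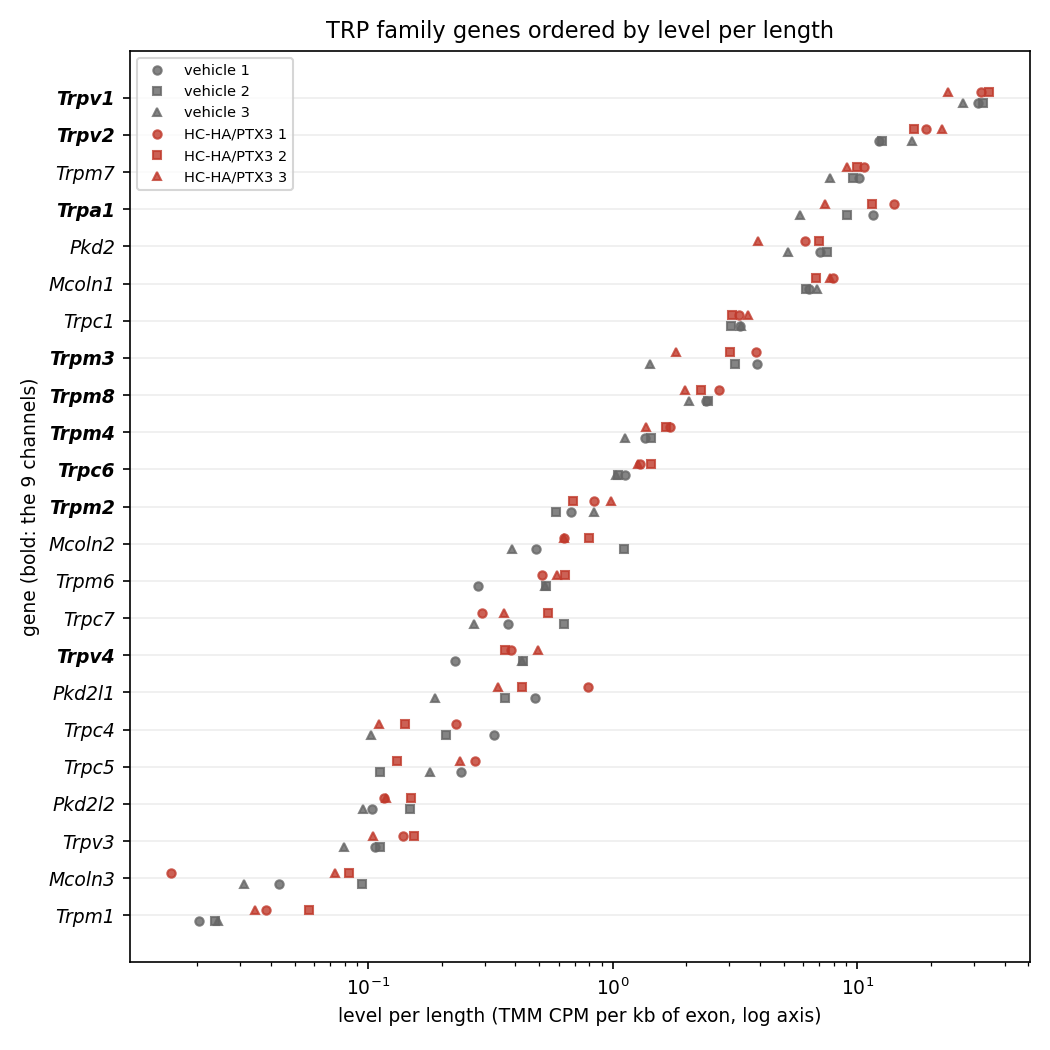
Level per length of 23 of the TRP family genes with at least 1 count in every culture, in TMM-scaled CPM per kb of exon on a log axis. Each culture has 1 symbol (grey vehicle, red HC-HA/PTX3), and genes are ordered by the vehicle mean with the 9 channels in bold. Not every such gene is drawn. Trpv1 leads at 30.3 CPM per kb, and Trpv4 lies at 0.36, below 7 of the relatives drawn.

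The channels also differed between cultures of the same group, in a pattern that both groups shared. In replicate 3, Trpm3 was at 0.365 times its replicate 1 level with vehicle and 0.468 times after HC-HA/PTX3. Trpa1 was at 0.504 and 0.52 times. Trpv2 went the other way, at 1.36 and 1.16 times, as did Trpm2 at 1.23 and 1.18 times and the sparsely counted Trpv4 at 1.875 and 1.284 times. The summed satellite glia markers had the steepest such difference of the neuronal and glial lists, with 2003, 1162 and 650.3 CPM in vehicle replicates 1, 2 and 3 and 1872, 1199 and 668 CPM in the treated ones. Relative to replicate 1, the cell cycle sums fell more steeply still in replicate 3, from 581.4 to 167.7 CPM with vehicle and from 188.7 to 27.6 CPM after treatment. The fibroblast sum did so after treatment (1151 to 302.9 CPM) but not with vehicle (2138 to 894.5 CPM). The neuron markers had 7428, 6567 and 7316 CPM with vehicle and 7787, 7086 and 8242 CPM after treatment. The part of these cells in the levels of Trpm3 and Trpa1 was not tested.

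**Figure D4:**
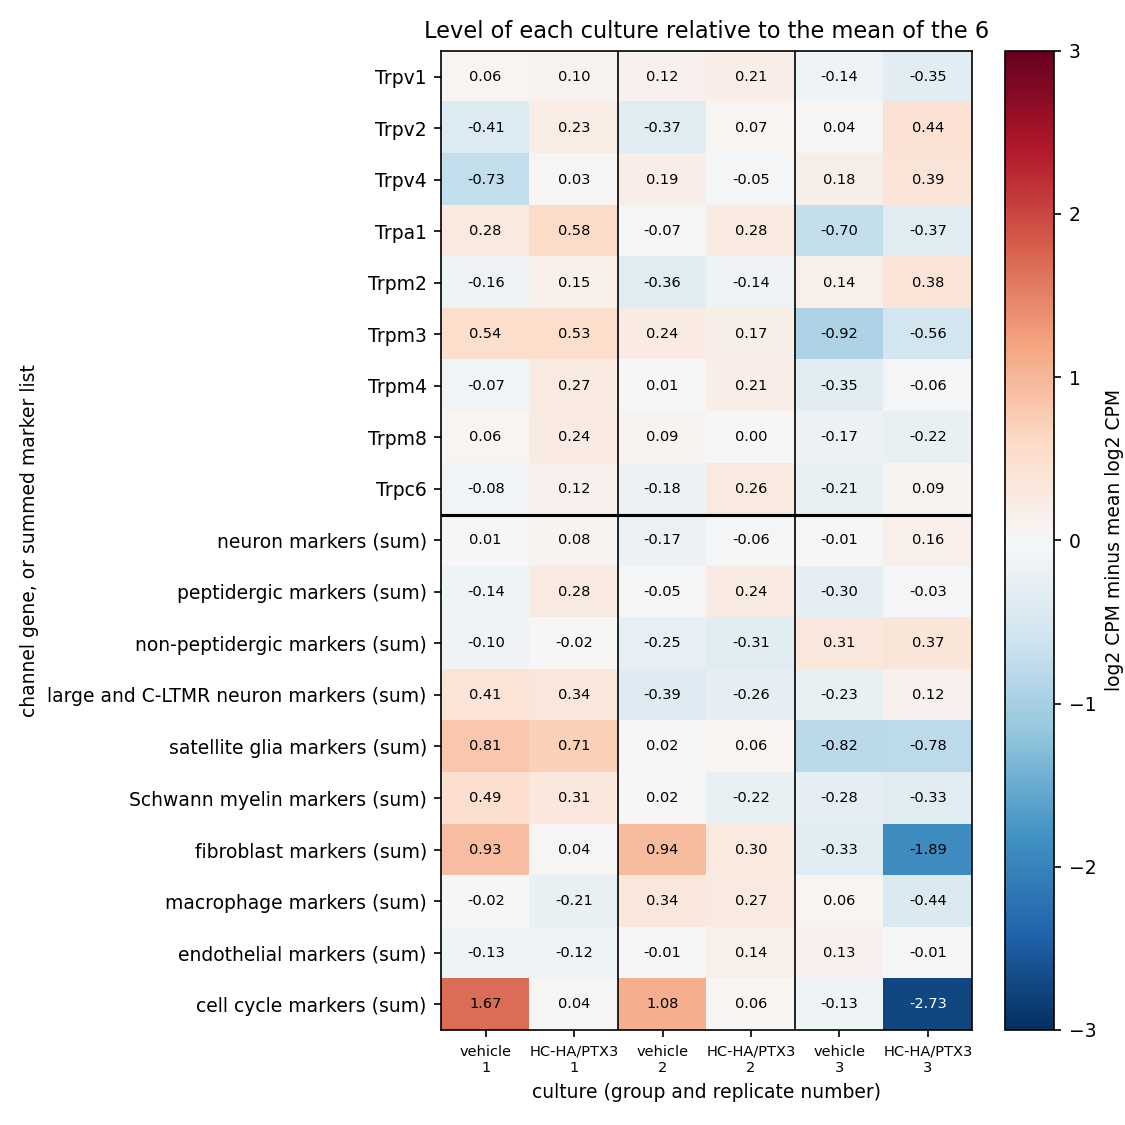
Log2 CPM of each TRP channel gene, and of the summed CPM of marker lists, in each culture relative to the mean of the 6 cultures. Colour and printed value give this difference, with same-numbered cultures side by side. The cold neuron, neutrophil and mural lists are not drawn. Trpm3 and Trpa1 are low in both replicate 3 cultures, as are the satellite glia markers at -0.82 and -0.78, whereas Trpv2 is at its highest, 0.44, in treated replicate 3.

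The genes most like Trpv1, Trpa1 and Trpm8 over the 6 cultures were sought among 13575 genes whose log2 CPM averaged 1 or more, by the root mean square difference of centred log2 levels. For Trpv1 they were Gm12992 (0.027), Flt1 (0.031) and Cmtm3 (0.040), where the profile of Trpv1 itself had a root mean square of 0.19. Trpa1 was matched most closely by Myo6 (0.041), Hacl1 (0.056) and H2-K1 (0.074), against 0.43 for its own profile. For Trpm8 they were Dclk2 (0.024), Grk5 (0.031) and Efcab14 (0.038), against 0.16. With 6 cultures these likenesses are descriptions only.

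Of 47 regulators of TRP channels, all tested, 2 were called higher and 2 lower, near the 8.7% of all tested genes. At the adjusted p alone there were 13, 7 higher and 6 lower, against 19.2%. Their median log2 fold change was 0.01. Among 17 receptors that sensitise or inhibit the channels, the histamine receptor Hrh1 was higher, with 2.97, 3.45 and 5.73 CPM in vehicle replicates 1, 2 and 3 and 5.36, 4.70 and 10.4 CPM in the treated ones (0.73, SE 0.14, edgeR adjusted p = 0.00745). The prostaglandin E2 receptor Ptger4 was higher too, at 11.2, 14.5 and 12.4 CPM against 18.2, 15.2 and 21.1 CPM (0.52, SE 0.14, adjusted p = 0.0259). Both were higher in all 3 pairs, and the groups of Ptger4 did not overlap. Mrgpra3, an itch receptor of neurons that express Trpa1, was lower, at 9.16, 4.63 and 1.804 CPM against 5.28, 2.88 and 1.73 CPM (-0.56, SE 0.17, adjusted p = 0.0484). The difference in pair 3 was small, and its level was lowest in replicate 3, as for Trpa1. Il6st, the most abundant receptor on the list, was at 0.05 (adjusted p = 0.592).

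Leaving out a pair ended each of these receptor calls at least once. Without the cultures numbered 1 the adjusted p was 0.061 for Hrh1, 0.149 for Ptger4 and 0.355 for Mrgpra3. Without those numbered 2 it was 0.194 for Mrgpra3, and without those numbered 3 it was 0.0816 for Ptger4. Of 10 other settings, 8 called Hrh1 (adjusted p 7.47e-05 to 0.521), 5 called Ptger4 (0.000578 to 0.339) and 4 called Mrgpra3 (0.00576 to 0.76).

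Among 12 kinases, phosphatase and phospholipases, 0 were called by edgeR and 5 had an unadjusted p under 0.05, against 8.7% and 33.2% of all tested genes. All 5 also passed the adjusted p alone, against 19.2% of all tested genes. Camk2a (0.46, edgeR adjusted p = 0.00129), Pip5k1c (0.22, 0.029), Plcg1 (0.26, 0.0325) and Src (0.22, 0.0414) were higher, and Prkca (-0.27, 0.0305) was lower. Camk2a encodes a calcium-dependent kinase that phosphorylates TRPV1, and Pip5k1c an enzyme that makes PIP2. Ppp3ca, the calcineurin subunit, was the most abundant at 487 CPM with vehicle, and its change was 0.08. Of 11 accessory proteins, 0 were called and 3 had an unadjusted p under 0.05, against 8.7% and 33.2% of all tested genes. Pirt, which binds TRPV1 and TRPM8, was at 760, 734 and 759 CPM in vehicle replicates 1, 2 and 3 and at 624, 603 and 669 CPM in the treated ones. The groups did not overlap, and the log2 fold change was -0.25 (SE 0.06, edgeR adjusted p = 0.0208). Snapin, a partner of TRPV1 in vesicle traffic, was also lower, at -0.39 (adjusted p = 0.00692).

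The median log2 fold change of the 7 lipid enzymes was -0.19, and 1 was called, against 8.7% of all tested genes. Ptgs2, the inducible cyclooxygenase and the most abundant of them, was at 26.4, 37.5 and 57.7 CPM in vehicle replicates 1, 2 and 3 and at 16.0, 32.2 and 30.3 CPM in the treated ones. It was lower in all 3 pairs, although the groups overlapped (-0.62, SE 0.12, edgeR adjusted p = 0.00665). Without the cultures numbered 3 the change was -0.45, below the fold threshold, at an adjusted p of 0.0241 (range over 10 settings 5.91e-09 to 0.553). Faah, which degrades the TRPV1 ligand anandamide, was at -0.498, just inside the fold threshold, and was not called (adjusted p = 0.0151).

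**Figure D5:**
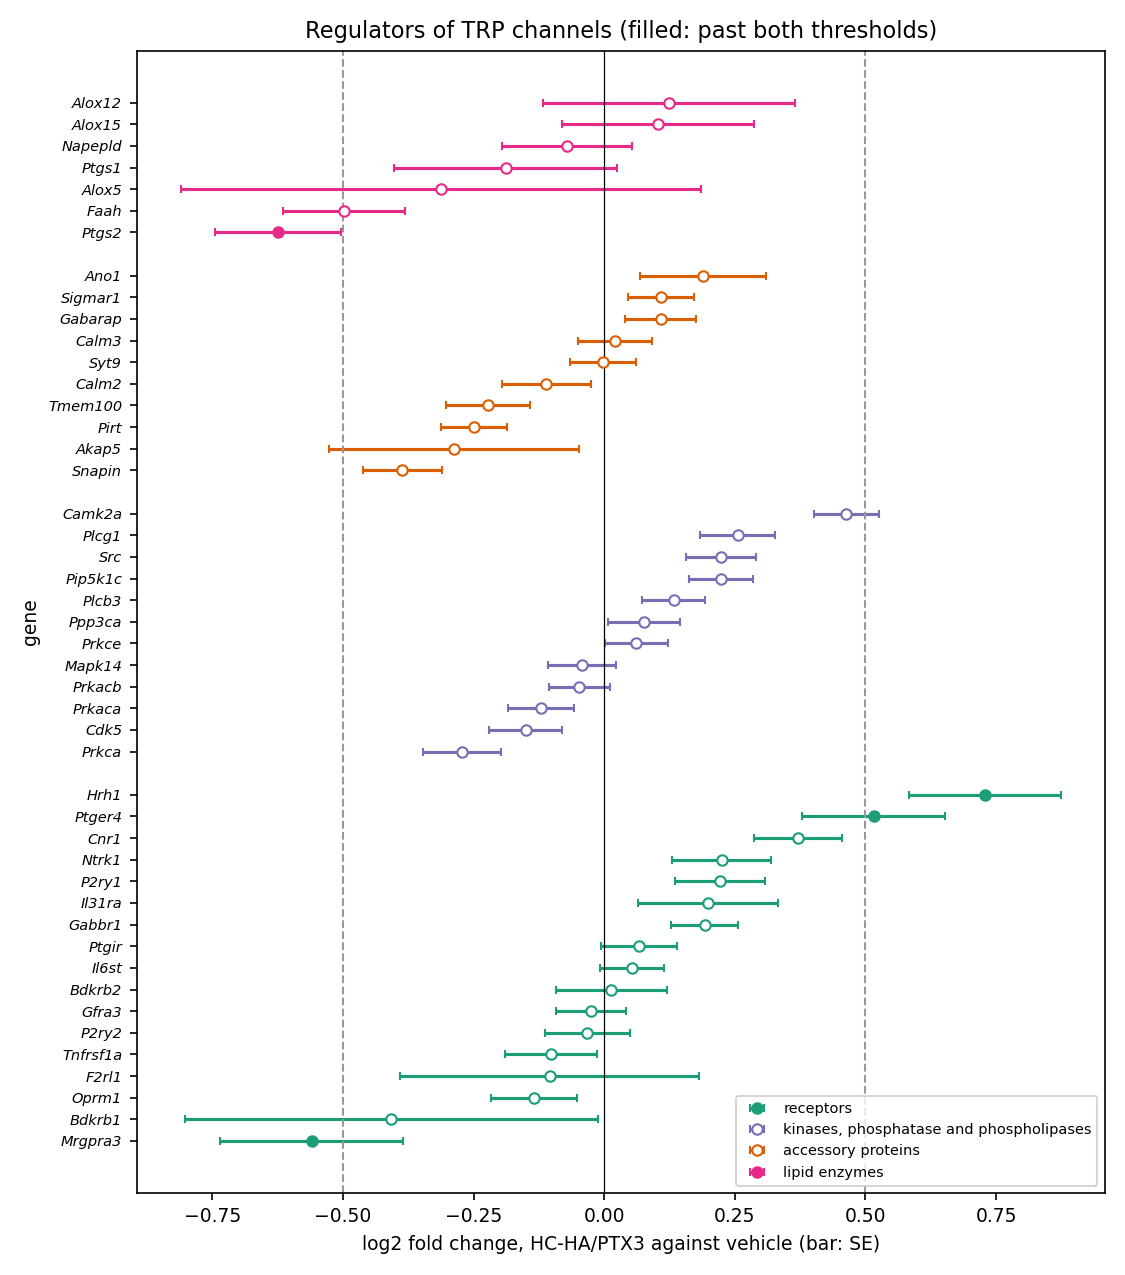
Log2 fold change (horizontal axis, HC-HA/PTX3 against vehicle) with its SE for 46 of the 47 regulators of TRP channels in 4 lists, with dashed lines at the threshold of 0.5 and filled symbols for genes past both thresholds. Hrh1 (0.73) and Ptger4 (0.52) are filled on the right, and Ptgs2 (-0.62) and Mrgpra3 (-0.56) on the left.

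Marker lists of the cells that could carry these channels moved as follows, where 8.7% of all tested genes were called and 33.2% had an unadjusted p under 0.05. All 5 peptidergic markers had positive estimates, with Tac1 (1.005) and Calcb (0.67) called and Calca the most abundant, and their sum was 1177 ± 104 CPM with vehicle and 1478 ± 168 CPM after treatment (SD, n = 3 each). Trpv1, found in many of these neurons, was at -0.03 in the same fit. Of 7 non-peptidergic markers, Nppb (0.89) and Mrgprd (0.62) were called higher and Mrgpra3 lower, P2rx3 was the most abundant, and the sums were 439 ± 91.4 and 449.8 ± 108 CPM. Neither the 11 neuron markers nor the 7 markers of large and C-LTMR neurons, led by Nefh, held a call, at medians of 0.09 and 0.17, with 5 and 4 genes at an unadjusted p under 0.05. The call of Nppb was lost without the cultures numbered 1 (edgeR adjusted p = 0.098; range over 10 settings 7.98e-05 to 0.281).

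Among other cells, the lists of fibroblast and cell cycle markers held called genes. The sum of the 6 fibroblast markers was 2138, 2152 and 894.5 CPM in vehicle replicates 1, 2 and 3 and 1151, 1382 and 303 CPM in the treated ones, with Col1a1 (-1.62), Col1a2 (-1.11) and Col3a1 (-0.96, the most abundant) called lower. The other 3, Dcn (-0.09), Lum (-0.31) and Pdgfra (-0.25), were not called (edgeR adjusted p = 0.327, 0.185 and 0.0717). Mki67 (-1.72, the more abundant) and Top2a (-1.68) were called lower as well, summing to 379 ± 207 and 136 ± 93.6 CPM. The Schwann myelin markers, led by Pmp22, summed to 727 ± 199 and 648 ± 162 CPM. C1qa (-0.74) and C1qb (-0.82) were called of 8 macrophage markers, led by Cd68, with sums of 58.8 ± 7.92 and 49.9 ± 13.0 CPM. Without the cultures numbered 1 their adjusted p-values were 0.126 and 0.0581, and without those numbered 3 their changes were -0.41 and -0.48. Acta2 (-1.03, not called by DESeq2) was the call among 6 mural markers, led by Pdgfrb, with sums of 492 ± 66.8 and 432 ± 128 CPM. The satellite glia (1246 ± 603 CPM after treatment, led by Apoe), endothelial (257 ± 23.0 and 259 ± 24.1 CPM, led by Cdh5) and neutrophil lists (6.03 ± 1.84 and 5.10 ± 1.88 CPM, led by S100a9) held 0 calls by edgeR, with 5 of 8, 0 of 6 and 1 of 3 genes at an unadjusted p under 0.05, against 33.2% of all tested genes. At the adjusted p alone, 1 satellite glia marker was higher and 2 were lower, against 19.2% of all tested genes, so their sum hides changes in both directions. No gene of any marker list was at 0 in a culture. The fibroblast, cell cycle, Schwann, macrophage and mural sums were lower in all 3 treated cultures than in their vehicle partners, in the pairs where Trpv2, Trpa1, Trpm2, Trpm4 and Trpc6 were higher, and their part in those estimates was not tested.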

How the data were processed

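Bulk RNA of 6 mouse DRG neuron cultures was used, 3 with vehicle and 3 with HC-HA/PTX3, grouped and numbered by their labels. The authors deposited raw counts per gene, not normalized, from ribosomal RNA-depleted libraries aligned to mm10 and counted with featureCounts. The submitters' notes name HISAT2 and the file headers STAR, and the strand setting is not given in the sources used here. The 10 min arm was not analysed here.

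The 18277 genes kept by filterByExpr were compared with edgeR 4.0.16 (R 4.3.3, TMM, glmQLFit, glmQLFTest) with the replicate number as a block and Benjamini-Hochberg adjustment. The study's methods use a batch term without saying which culture was in which batch, and the replicate number, which the labels give to both groups, stood in for it. After the group means were removed, cultures with the same number correlated over genes at 0.631, 0.536 and 0.774, above the limit of 0.1 for pairs. Those with other numbers correlated at -0.613 to 0.148. Vehicle replicate 2 with treated replicate 1 (0.148) and vehicle replicate 1 with treated replicate 2 (0.104) also passed that limit. The limit alone therefore does not mark a pair, although each same-numbered correlation was above all of the others. No cultures of a group were duplicates (chi-square per degree of freedom 31.4 to 108). Levels are library-scaled counts (CPM), and 1 CPM stood for 37.1 to 56.0 counts. Log2 CPM used a prior count of 2.

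Alternatives were no block, all genes with at least 1 count, at least 10 counts in every culture, upper-quartile scaling, raw library sizes for levels, DESeq2 1.42.0, limma-voom 3.58.1, ComBat-seq (sva 3.50.0) with limma, no fold-change threshold, and each replicate number left out. Positions and exon lengths are from GENCODE M21, and promoters from RefSeq. Named genes were the TRP genes, the called and most abundant genes of each list, up to 8 examples by smallest p, and the 3 closest profiles to Trpv1, Trpa1 and Trpm8. The 9 members and the lists of relatives, regulators and markers were chosen with earlier results of these data known. Some genes counted in these lists, and 1 culture additive, are not reported here. On simulated counts with 200 changed genes, the main fit called 199 of them and 1 other gene, and ComBat-seq with limma 199 and 63 others. How often the main fit finds differences as small as those of the 9 channels was not tested.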

Additional observations from a re-analysis of the deposited data

How the results depend on the processing

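Without the replicate block, edgeR called 0 genes, 0 TRP channels and 0 regulators, against 1591, 0 and 4 with it. With no fold-change threshold there were 3505 genes, 2 channels and 13 regulators. Upper-quartile scaling called 1 channel, Trpv2, and ComBat-seq with limma 2 other TRP genes. With a replicate number left out in turn, 878 to 1571 genes, 0 to 1 channels and 1 to 4 regulators were called, and the channel median was 0.23 to 0.28. Fewer cultures were fitted in those runs.

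Signs turned for Trpv1 and Trpm8, whose estimates were near 0. Trpv1 went to 0.0027 under upper-quartile scaling and 0.0006 after ComBat-seq, and Trpm8 to -0.0047 with all genes of at least 1 count. Signs also turned with a number left out, where Trpv1 ran from -0.0898 to 0.0765, Trpm8 from -0.0679 to 0.0632 and Trpm3 from -0.0192 to 0.17. Trpv4, at 0.22 in the main fit, ran from -0.0015 to 0.44. None of these passed an adjusted p of 0.05 in any setting, and the cause was not tested. Trpv2, Trpa1, Trpm2, Trpm4 and Trpc6 stayed positive in all 11 settings tried. With the longest transcript as length, the vehicle level per kb of 7 channels moved by more than the replicate SD. Trpv4 had as few as 37 counts in a culture.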
